A study of Mus musculus with 6 samples.

Results

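The 10 genes described here encode the NF-kB family and its main brakes: the subunits Nfkb1, Rel, Rela, Nfkb2 and Relb, the inhibitors Nfkbia, Nfkbib, Nfkbie and Nfkbid, and the ubiquitin-editing enzyme Tnfaip3. They were taken by gene symbol from count tables that list 55401 genes, and each symbol matched 1 row. The series holds RNA sequencing of germinal centre B cells sorted from spleens of wild-type C57BL/6 mice. The mice were immunised intraperitoneally with sheep red blood cells, which call on T cell help, received them again on day 5 and were killed on day 12. There are 3 libraries of a subset labelled DN and 3 of a subset labelled DP, all in 1 labelled batch, and no label explains which markers stand behind the subset names. The design text describes 3 wild-type mice that each had both subsets, but no label assigns a library to a mouse, so the p-values measure only the spread between libraries, which may be technical.

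NF-kB proteins bind DNA as pairs of subunits. In the canonical route, signals such as antigen receptor engagement activate a kinase complex that marks the IkB inhibitors for destruction and frees dimers that contain p50, RelA or c-Rel. In the alternative route, receptors such as CD40 and the BAFF receptor stabilise the kinase NIK, which drives processing of the Nfkb2 product p100 to p52, the partner of RelB. Unprocessed p100 also holds dimers in the cytoplasm, and Nfkbia, Nfkbie, Tnfaip3 and Nfkb2 are textbook target genes of NF-kB itself. In the germinal centre these factors act in B cells that have received antigen and T cell help.

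Several members carry the NF-kB consensus close to a transcript start, and the stretches are shown because these members rose in DP while Rel, which carries the same kind of stretch, fell. The sequences are RefSeq's for GRCm38.p6, the assembly that mm10 names. Windows of 250 bases upstream of annotated starts were searched on both strands for a loose pattern, GGGNNNNNCC. They were also searched for the consensus, a stricter form of it that limits most of the inner bases too. Of the 10 members, 8 had a window (13 windows in all, since Nfkb2, Nfkbid and Tnfaip3 have several starts). Capitals mark the consensus on either strand, in 30-base stretches written 5′ to 3′ along the gene. Not every match is printed: Nfkb2 start 1 and Tnfaip3 start 1 each hold a further match, and Nfkb2 start 2 also holds a match.
Nfkb2, start 1, chr19:46304688-46304717, plus strand: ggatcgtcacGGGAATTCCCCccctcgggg
Nfkb2, start 3, chr19:46305695-46305724, plus strand: tggtattttcGGGACTTTCCtaagcagcac
Nfkbia, chr12:55492657-55492686, minus strand: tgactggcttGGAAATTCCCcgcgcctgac
Nfkbie, chr17:45555584-45555613, plus strand: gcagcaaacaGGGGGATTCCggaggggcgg
Nfkbid, start 2, chr7:30422170-30422199, plus strand: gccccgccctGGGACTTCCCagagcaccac
Nfkbid, start 2, chr7:30422215-30422244, plus strand: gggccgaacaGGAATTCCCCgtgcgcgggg
Tnfaip3, start 1, chr10:19015411-19015440, minus strand: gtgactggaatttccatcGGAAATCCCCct
Rel, chr11:23771042-23771071, minus strand: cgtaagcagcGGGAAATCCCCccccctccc

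The consensus stood in at least 1 window of 6 of the 8 members, namely Rel, Nfkb2, Nfkbia, Nfkbie, Nfkbid and Tnfaip3, against 4.46% of the 27025 genes in the RefSeq table. The loose pattern stood in 7 of the 8, but also in 48.7% of all genes. Rela had only loose matches and Nfkbib had neither. The share of G and C in the windows of the members ranged from 46.4% to 77.6%. The window of Nfkb2 start 1 lies wholly, and those of Nfkb2 start 3, Tnfaip3 start 1 and Rela partly (234, 110 and 58 of 250 bases), within exons that GENCODE annotates for the same gene, and the Rel window shares 1 base. A match describes the letters and not a binding event, and Nfkb1 and Relb had no window. The whole Nfkbia window, chr12:55492648-55492897 on the minus strand, shows the consensus beside the start and is printed because this inhibitor gene had the largest rise of the classical inhibitors.
Nfkbia upstream window: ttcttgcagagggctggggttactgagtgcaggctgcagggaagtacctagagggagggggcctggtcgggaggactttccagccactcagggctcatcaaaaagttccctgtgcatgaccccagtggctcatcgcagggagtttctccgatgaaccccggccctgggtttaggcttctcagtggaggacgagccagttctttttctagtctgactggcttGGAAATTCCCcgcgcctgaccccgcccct

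**Figure D1:**
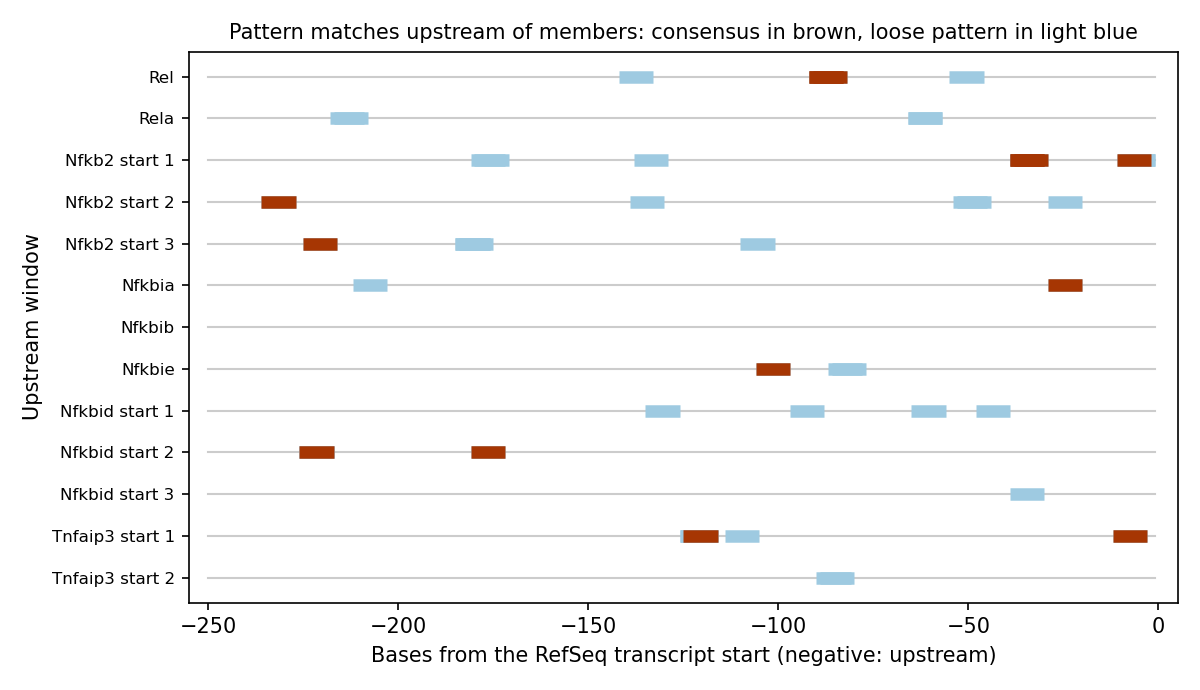
Positions of pattern matches in the 13 upstream windows of 8 members. The x axis gives bases from the RefSeq transcript start. Brown blocks mark the NF-kB consensus and light blue blocks the loose pattern on either strand, and only the Nfkbib window has neither.

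Depth differed between the subsets. The DN libraries held 8904415 to 11897360 counts in genes and the DP libraries 17509384 to 20538024. Levels below are CPM, counts scaled to a common library size with TMM factors that correct for RNA composition, and 3 counts correspond to at most 0.315 CPM. The TMM factors were 1.069 to 1.071 in DN and 0.926 to 0.941 in DP. The scaling matters because changes with library totals alone were shifted by -0.20 on the log2 scale for the median gene. Germinal centre B cell markers were present in every library: all 12 listed genes were above 1 CPM on average, but 11 were lower in DP and 1 was higher, and their summed level was 3930 to 3970 CPM in DN and 2180 to 2230 CPM in DP. Fewer cells of a type and less RNA per cell cannot be told apart in bulk samples. The macrophage and monocyte markers, 15 genes with Cd14 at 0 throughout, summed to 27.7 to 29.9 CPM in DN and 13.5 to 15.3 CPM in DP. Of 12 T cell markers, 11 were below 1 CPM on average, and the sum of the list (50.5 to 59.1 CPM in DN, 58.5 to 60.9 CPM in DP) was almost wholly Lck. Of the 2 tested genes, Lck was higher in DP and Cd4 lower (1.28 CPM in DN, 0.57 CPM in DP on average). Cd3d, Cd3e and Cd3g, too low to be tested, lay wholly lower in DP, and the other untested genes of the list overlapped. Dendritic cell markers, 8 genes with Xcr1 at 0, summed to 34.8 to 36.1 CPM in DN and 59.3 to 61.2 CPM in DP, with 6 of the 8 under 1 CPM on average over the 6 libraries and most of the sum from Flt3 and Bst2. Among those 6, Zbtb46, a transcription factor of classical dendritic cells, had 0 counts in each DN library and 1.72, 1.71 and 1.65 CPM in DP. Zbtb46 was picked out after its value was seen. All 4 tested genes of the list were higher in DP. Of those too low to be tested, Clec9a and Siglech had 0 counts in each DP library and a few in DN. Ccr7 averaged 0.52 CPM in DN and 0.35 CPM in DP. Erythroid markers summed to 62.1 to 72.5 CPM in DN and 15.9 to 18.3 CPM in DP, with all 6 tested genes lower. Neutrophil markers, 8 genes with Ly6g at 0, summed to 2.28 to 3.15 CPM and 0.55 to 0.622 CPM. Naive follicular B cell markers summed to 601 to 609 CPM in DN and 249 to 262 CPM in DP, with 5 of 6 tested genes lower and 1 higher. Plasma cell markers summed to 403 to 414 CPM and 370 to 381 CPM, with 4 of 6 tested genes higher and 1 lower. Beside the calls in these lists, 38.3% of all tested genes were called higher in DP and 37.6% lower. The part of these cell types in the results below was not tested.

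All 10 members passed the filter on low counts. In DP, 8 rose and 2 fell at an edgeR quasi-likelihood adjusted p (Benjamini-Hochberg) under 0.05. Of all 11296 genes tested, 75.9% were called in either direction, 38.3% higher and 37.6% lower, so a call alone says little in this comparison. At least 2-fold rises were seen for 5 of the 10, against 12.3% of all tested genes, and at least 2-fold falls for 0 of the 10, against 12.8%. The median log2 fold change of the 10 was 0.92, beside 0.01 over all tested genes. TMM scaling assumes that most genes do not change, so it holds the latter value near 0. The 3 DP libraries lay wholly above the 3 DN libraries for 8 members, against 39.0% of tested genes, and wholly below for 1, against 38.0%. Nfkb2, Nfkbia, Nfkbie, Nfkbid and Tnfaip3 made up the at least 2-fold rises, while the transactivating canonical subunits Rel and Rela were the members called lower. The inhibitor Nfkbib rose 1.76-fold. Every member kept its direction with library totals alone, where 3 rather than 5 rose at least 2-fold.

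**Figure D2:**
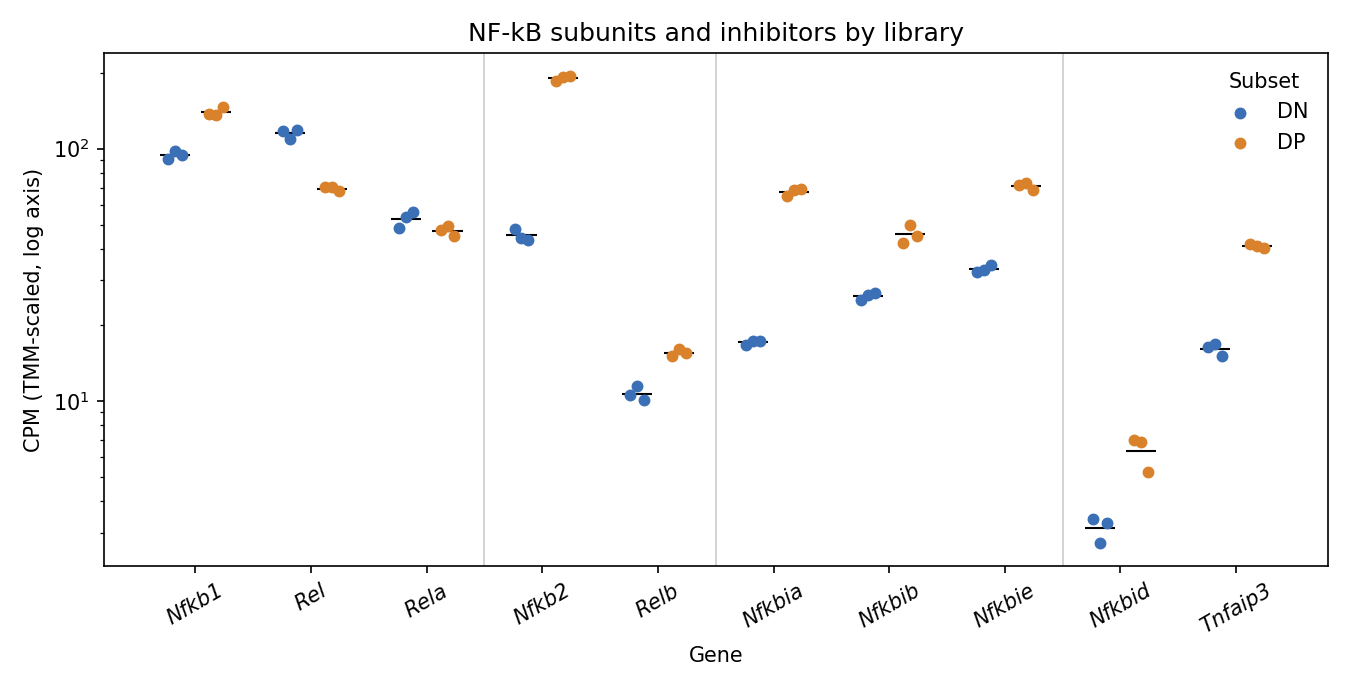
CPM of the 10 members on a log axis, with a point for each of the 3 DN (blue) and 3 DP (orange) libraries and a bar at the group mean. Grey lines separate canonical subunits, alternative subunits, classical inhibitors, and Nfkbid with Tnfaip3. Rela is the member whose groups overlap.

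The precursor and binding subunits of the alternative route were both higher in DP, by very different amounts. Nfkb2, which encodes p100 and p52, stood at 47.9, 44.3 and 43.5 CPM in DN and at 186, 193 and 194 CPM in DP. Each DP library was far above each DN library, and the fitted rise was 2.07 ± 0.05 on the log2 scale (SE, 3 libraries per group, edgeR adjusted p = 4.89e-43), or 4.20-fold. By size of its rise it ranked 301 among the 11296 tested genes. Nfkb2 (ENSMUSG00000025225.15) lies on chromosome 19 from 46304320 to 46312385 in mm10. The antisense gene models AC114539.1 and Psd share 11.6% and 6.52% of its annotated exon bases, and no source says whether the counting used strand, so reads there cannot be assigned with certainty.

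Relb, the p52 partner, was scarce and rose little. Its libraries held 134, 109 and 98 counts in DN and 254, 310 and 253 in DP, or 10.5, 11.4 and 10.1 CPM against 15.1, 16.1 and 15.5 CPM. The groups did not overlap, and the rise was 0.54 ± 0.10 (edgeR adjusted p = 5.33e-06). Relb (ENSMUSG00000002983.17) is on chromosome 7 from 19606217 to 19629438.

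The canonical subunits did not move together. Nfkb1, which encodes p105 and its product p50, measured 91.1, 97.4 and 94.3 CPM in DN and 138, 136 and 147 CPM in DP. All DP libraries were higher, by 0.58 ± 0.05 on the log2 scale (edgeR adjusted p = 1.19e-17). Rel, which encodes c-Rel, a subunit prominent in lymphocytes, went the other way. Its level was 118, 109 and 119 CPM in DN and 70.4, 70.2 and 67.6 CPM in DP, a fall of 0.73 ± 0.05 (edgeR adjusted p = 2.78e-21), so that DN held 1.66 times the DP level. It was the member whose DP libraries all lay below the DN libraries. Nfkb1 (ENSMUSG00000028163.17) lies on chromosome 3 from 135584655 to 135691547, and Rel (ENSMUSG00000020275.9) on chromosome 11 from 23736847 to 23770970.

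Rela, which encodes the broadly expressed p65, barely differed. Its CPM were 48.7, 53.6 and 55.8 in DN and 47.4, 49.2 and 44.9 in DP. DP replicate 2 lay above DN replicate 1, so the groups overlapped. The fall of 0.15 ± 0.06 had an edgeR adjusted p of 0.0192, which DESeq2 put at 0.0518. It was 0.0713 without DN replicate 2, 0.154 without DN replicate 3, 0.0509 without DP replicate 1 and 0.141 without DP replicate 3. The fall itself was 0.13, 0.10, 0.15 and 0.11 in these 4 fits, with a standard error of 0.07 in each, and 0.16 ± 0.08 in DESeq2. The call was kept without DN replicate 1 (log2 fold change -0.21, edgeR adjusted p = 0.00224) and without DP replicate 2 (-0.18, edgeR adjusted p = 0.0145). With library totals alone the change was -0.35 (edgeR adjusted p = 7.37e-07). Rela (ENSMUSG00000024927.8) lies on chromosome 19 from 5637483 to 5648130.

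**Figure D3:**
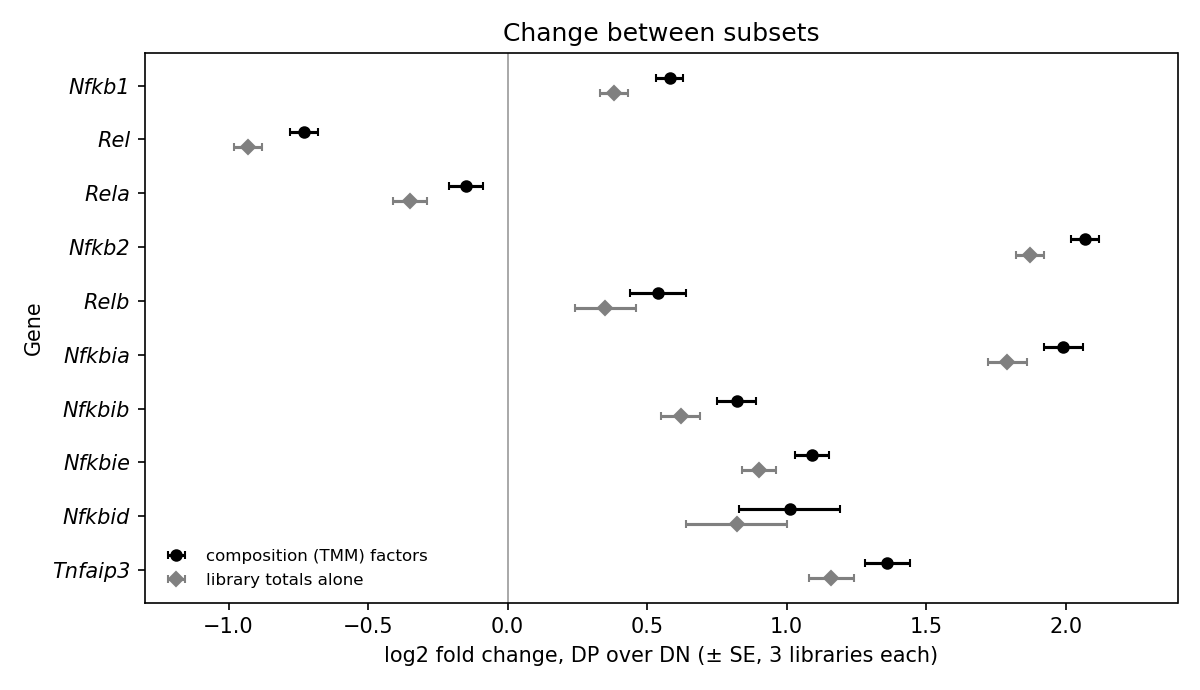
Log2 fold change of DP over DN for each member with its standard error (3 libraries per group). Circles use TMM scaling and diamonds library totals alone. Each diamond lies to the left of its circle and on the same side of 0, with Nfkb2 and Nfkbia farthest to the right and Rel and Rela to the left of 0.

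Subunit genes of the routes were contrasted within each library as a log2 ratio of CPM, which does not depend on library scaling. These are RNA levels, and the activity of either route was not measured. Nfkb2 over Nfkb1 was -0.93, -1.14 and -1.12 in DN and 0.44, 0.50 and 0.40 in DP. Since the genes differ in exon length, only the change of such a ratio between the subsets carries information, not its sign. The difference was 1.50 (means -1.06 ± 0.11 and 0.44 ± 0.05, SD, n = 3, exact two-sided permutation p = 0.1). Relb over Rel differed by 1.27, from -3.43 ± 0.16 in DN to -2.16 ± 0.06 in DP, and Relb over Rela by 0.70, from -2.30 ± 0.15 to -1.60 ± 0.06. Among the canonical subunits, Rel over Rela fell by 0.57, from 1.13 ± 0.13 to 0.56 ± 0.04. The groups did not overlap for any of the 6 ratios compared, and each had an exact p of 0.1, the smallest that 3 against 3 can give, with an adjusted p of 0.1 over the 6. Of single tested genes, 39.0% lay wholly above and 38.0% wholly below in DP. The share for ratios of other gene pairs was not computed, so the lack of overlap alone says little.

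Levels of different genes are compared per kilobase of annotated exon. In DN, Rela (17.2 CPM per kb ± 1.20, SD, n = 3) and Rel (15.4 ± 0.700) led the subunits, and their libraries overlapped. Nfkb2 followed at 9.87 ± 0.506, Nfkb1 at 7.82 ± 0.262 and Relb at 2.75 ± 0.181. In DP, Nfkb2 led at 41.6 ± 0.890, clear of Rela (15.4 ± 0.703), Nfkb1 (11.6 ± 0.472), Rel (9.30 ± 0.208) and Relb (4.00 ± 0.128), and no neighbouring subunits overlapped. As a share of the summed level of the 5 subunits, Nfkb2 and Relb together made up 25.1%, 23.9% and 22.4% in DN and 55.1%, 55.7% and 56.3% in DP. Nfkb2 carried that increase, with 18.6% ± 1.21 in DN and 50.8% ± 0.601 in DP, whereas the share of Relb was 5.19% ± 0.392 and 4.88% ± 0.0945 and overlapped between the groups. The share of Rel went from 29.1% ± 1.26 to 11.4% ± 0.321 and that of Rela from 32.4% ± 1.82 to 18.8% ± 0.816. These orders depend on the length used for Nfkb1, whose annotated exons cover 12061 bases but whose longest transcript has 4149. By longest transcript, Nfkb1 led the subunits in DN (22.7 CPM per kb) and stood behind Nfkb2 in DP (33.8 against 49.6), and the joint share of Nfkb2 and Relb was 20.7% ± 1.21 in DN and 47.3% ± 0.407 in DP.

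**Figure D4:**
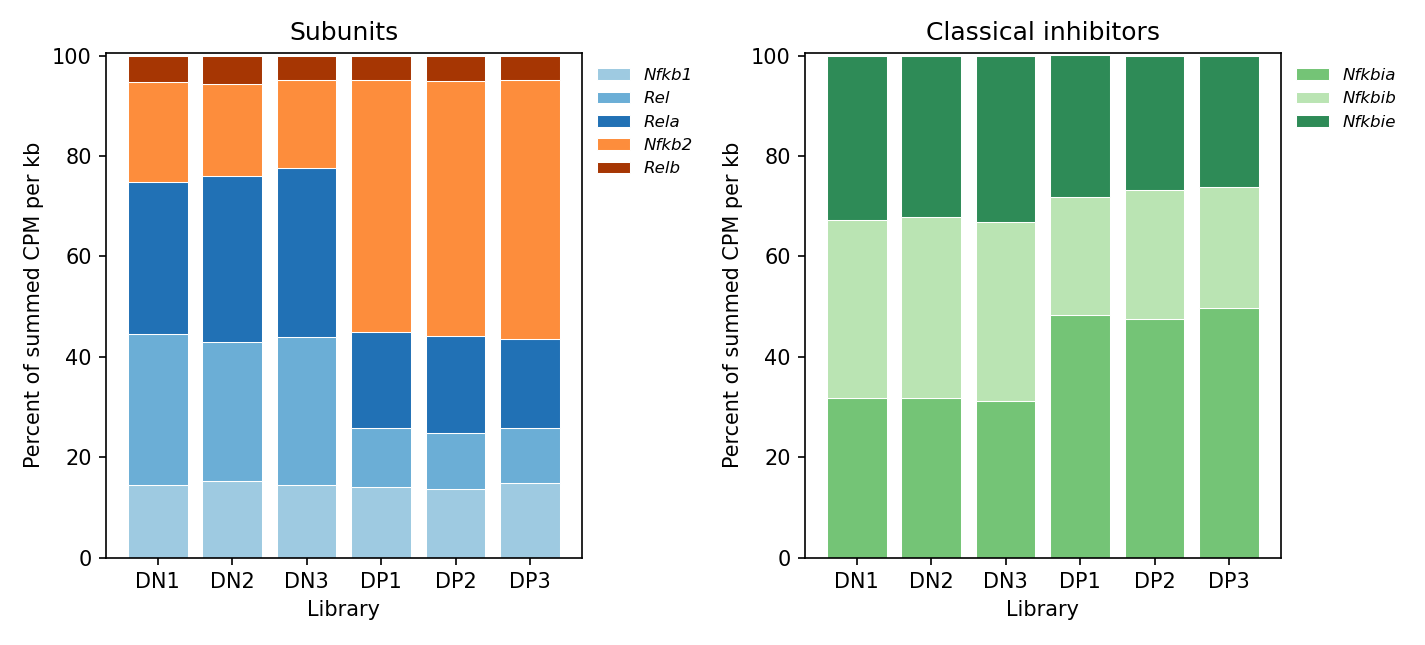
Share of each gene in the summed CPM per kb of exon union, by library, for the 5 subunits (left, canonical in blues and alternative in oranges) and the 3 classical inhibitors (right). Nfkb2 takes 17.6% to 20.0% in DN libraries and 50.3% to 51.5% in DP libraries, and Nfkbia 31.1% to 31.8% and 47.6% to 49.8%.

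The classical IkB inhibitors, which hold dimers in the cytoplasm, were all higher in DP. Nfkbia, which encodes IkB-alpha, the inhibitor that is degraded and resynthesised in rapid feedback, had 16.7, 17.2 and 17.2 CPM in DN and 65.1, 68.5 and 69.1 CPM in DP. No library of DP came near those of DN, and the rise was 1.99 ± 0.07 (edgeR adjusted p = 1.46e-34), or 3.97-fold. Nfkbie, which encodes IkB-epsilon, had 32.5, 33.0 and 34.7 CPM in DN and 71.9, 72.8 and 68.4 CPM in DP, a rise of 1.09 ± 0.06 (edgeR adjusted p = 6.02e-25). Nfkbib, which encodes IkB-beta, had 25.1, 26.2 and 26.7 CPM in DN and 42.3, 49.7 and 45.0 CPM in DP, a smaller rise of 0.82 ± 0.07 (edgeR adjusted p = 4.90e-16). In both of these genes each DP library exceeded all DN libraries. Ccer2, on the opposite strand, shares 14.5% of the annotated exon bases of Nfkbib, so the values of Nfkbib carry the same doubt on strand as those of Nfkb2. In mm10, Nfkbia (ENSMUSG00000021025.8) lies on chromosome 12 from 55489410 to 55492647, Nfkbib (ENSMUSG00000030595.15) on chromosome 7 from 28758251 to 28767512 and Nfkbie (ENSMUSG00000023947.8) on chromosome 17 from 45555703 to 45563169.

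The balance among these inhibitors also shifted. In DN they stood close together per kilobase, with Nfkbib at 12.0 ± 0.384, Nfkbie at 11.0 ± 0.383 and Nfkbia at 10.6 ± 0.203 CPM per kb (SD, n = 3), and the last pair overlapped. In DP, Nfkbia was at 42.0 ± 1.34, above Nfkbie at 23.3 ± 0.759 and Nfkbib at 21.0 ± 1.72, which overlapped each other. The log2 ratio of CPM of Nfkbia over Nfkbib went from -0.61 ± 0.02 to 0.57 ± 0.09, and that of Nfkbie over Nfkbib from 0.36 ± 0.03 to 0.64 ± 0.11. These are ratios of CPM not divided by length, so they give the size of the shift and not which gene was higher. The summed level of the 3 inhibitors was 0.623, 0.637 and 0.638 times that of the 5 subunits in DN and 1.03, 1.08 and 1.05 times in DP. By longest transcript the ratios were 0.476 ± 0.00564 and 0.771 ± 0.0203, and the groups did not overlap by either length.

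Nfkbid and Tnfaip3, which restrain NF-kB at other levels, were higher in DP too. Nfkbid encodes IkB-NS, an inhibitor-like protein that works in the nucleus, and was the scarcest member, with 43, 26 and 32 counts in DN and 118, 132 and 85 in DP. These correspond to 3.38, 2.73 and 3.28 CPM against 7.00, 6.84 and 5.19 CPM, with DP replicate 3 the lowest of its group but above all DN libraries. The rise of 1.01 ± 0.18 (edgeR adjusted p = 9.32e-07) sat at the 2-fold mark. Tnfaip3 encodes A20, which removes activating ubiquitin chains from the signalling complexes upstream of the kinases, and had 16.3, 16.8 and 15.0 CPM in DN and 41.8, 41.1 and 40.5 CPM in DP. It rose by 1.36 ± 0.08 (edgeR adjusted p = 7.35e-24), with the DP libraries close together and far above DN. Nfkbid (ENSMUSG00000036931.15) lies on chromosome 7 from 30421732 to 30428746 and Tnfaip3 (ENSMUSG00000019850.11) on chromosome 10 from 19000910 to 19015657.

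Several members are also known to respond to cell handling, so immediate early and heat shock genes were read beside them. Of 19 genes of a dissociation stress list, with Jund at 0 throughout, 16 were tested, 7 rose and 7 fell, and the list's median log2 fold change was -0.09. Over all tested genes, 38.3% were called higher and 37.6% lower. The summed level of the 19 listed genes was 3190 to 3410 CPM in DN and 7580 to 8120 CPM in DP, most of it from the chaperone gene Hsp90aa1. Within the list Atf3 fell by 4.73 ± 0.48 and Dusp1 by 1.23 ± 0.24, and Junb rose by 1.39 ± 0.09. These genes were chosen after their values were seen. The part of handling in the rises of Nfkbia and Tnfaip3 was not tested.

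The other genes of the pathway did not rise as a block. Across 6 lists, with each gene counted once, 68 of 79 genes were tested. Of these, 28 rose and 28 fell (median 0.03), near the 38.3% and 37.6% of all tested genes. With library totals alone, 23 were called higher and 37 lower. Of the 68, 14 rose at least 2-fold and 5 fell at least 2-fold, against 12.3% and 12.8% of all tested genes. Some genes, such as Otud7b, stand in more than 1 list and are counted in each of them below. The receptor list had 5 rises and 4 falls among 10 tested genes (median 0.10). Cd40, the receptor for T cell help, went from 33.3 ± 1.35 to 76.1 ± 5.48 CPM (1.19 ± 0.06) and Tnfrsf8, the CD30 receptor, rose as well, while the antigen receptor chains Cd79a (-1.43 ± 0.05) and Cd79b (-1.82 ± 0.04) fell. Of 13 canonical kinases and antigen receptor adaptors, 9 fell, 1 rose and 3 were not called, with a median of -0.26, beside 37.6% lower and a median of 0.01 over all tested genes. With library totals alone 12 were lower and 0 higher. The protease gene Malt1 fell from 173 ± 5.94 to 88.6 ± 2.26 CPM (-0.97 ± 0.04), the kinase gene Prkcb by 0.68 ± 0.04 and the kinase adaptor Tab2 by 0.65 ± 0.04. Values here are CPM ± SD and log2 fold changes ± SE over n = 3 libraries per group, and each named change had an edgeR adjusted p under 0.05.

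Control genes of the alternative route, 8 in all, had 4 rises and 2 falls (median 0.25). Over all tested genes, 38.3% were called higher and 37.6% lower. Birc3, a ubiquitin ligase of the complex that destroys NIK, rose from 107 ± 5.91 to 177 ± 2.12 CPM (0.72 ± 0.04), and the adaptor Traf3 of the same complex rose by 0.54 ± 0.06. Otud7b, a deubiquitinase that protects Traf3, rose by 0.81 ± 0.05, and Fbxw7, a ubiquitin ligase subunit that targets p100, by 0.41 ± 0.04. Map3k14, which encodes NIK itself, was among the genes that fell, from 30.2 ± 2.60 to 22.7 ± 1.51 CPM (-0.41 ± 0.08); it was picked out after its value was seen. In the list of linear ubiquitin and deubiquitination genes, 12 were tested, with 3 rises, 5 falls and a median of 0.01. Beside these stand the same 38.3% and 37.6% of all tested genes. Tnip2, an A20-binding protein, rose by 0.85 ± 0.07, whereas Tax1bp1, an A20 adaptor, fell by 0.64 ± 0.04 and the deubiquitinase gene Cyld by 0.45 ± 0.04.

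**Figure D5:**
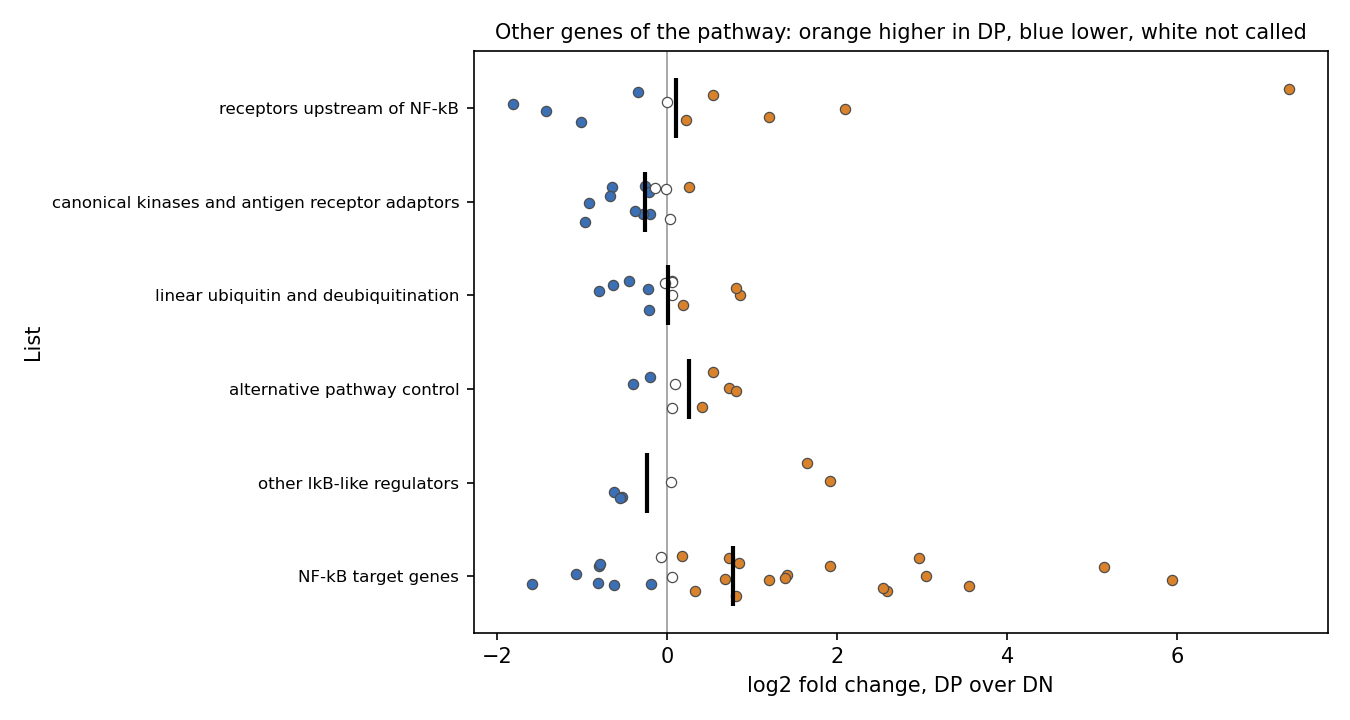
Log2 fold change of DP over DN for the tested genes of 6 lists of other pathway genes. Points are genes, orange where called higher, blue where called lower and white where not called, and black bars are list medians, from -0.26 for canonical kinases and adaptors to 0.77 for target genes.

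The list of IkB-like regulators outside the 10 members had 2 rises and 3 falls among 6 tested genes (median -0.24). Over all tested genes, 38.3% were called higher and 37.6% lower. Bcl3, a nuclear cofactor of p50 and p52 dimers, rose from 1.76 ± 0.177 to 6.69 ± 0.552 CPM (1.91 ± 0.20) and Nkrf, a repressing factor of NF-kB, from 11.6 ± 0.863 to 36.0 ± 2.19 CPM (1.64 ± 0.09). Pdlim2, a ubiquitin ligase of nuclear p65, fell by 0.56 ± 0.08 and Nfkbil1 by 0.53 ± 0.10. The target list had 17 rises and 7 falls among 26 tested genes (median 0.77), beside the same 38.3% and 37.6%. At least 2-fold rises numbered 11 and falls 2, against 12.3% and 12.8% of all tested genes. Like the members and the other lists, the target list was chosen with earlier results of these data known. Its counts are therefore not a test of the targets as a set. Bcl2a1d, a survival gene with near-identical copies that make its value uncertain, rose from 4.83 ± 0.994 to 38.5 ± 0.943 CPM, and Myc, Irf4 and Ccnd2 also rose. The targets that fell included Ltb, which encodes lymphotoxin-beta, from 44.5 ± 3.58 to 14.7 ± 1.14 CPM (-1.59 ± 0.08), and Fas (-1.07 ± 0.05). Many of these targets answer to other pathways too, and 4 listed targets (Bcl2a1b, Ier3, Ccl3 and Ccl4) were too low to be tested.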

How the data were processed

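The authors deposited 1 table of read counts per library, not normalized; the submitters' processing notes name mm10 and 3 programs (HTSeq 0.13.5, STAR 2.7.10a, Trim Galore 0.6.6) without roles or settings. No source used here gives the annotation release, the strand setting or any use of molecular identifiers, and unmerged duplicate reads would understate counting error. Per the labels' protocols, stranded polyA libraries were made from 2 ug of RNA of sorted cells. The 5 summary rows (12.6% of counts in DN and 9.56% in DP on average) were left out.

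Groups came from the titles. The test was edgeR 4.0.16 (R 4.3.3) quasi-likelihood, TMM, filterByExpr with a minimum count of 10, robust, no block, with Benjamini-Hochberg adjustment over 11296 genes; it was tried on simulated data. Standard errors came from the fold change and its F statistic. Exon lengths, positions and overlaps are from GENCODE M21, matched without version. No set test was used. No libraries of a group agreed within sampling noise, as a library deposited again would (chi-square per degree of freedom 1.96 to 3.26).

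The named genes are all members and, from each pathway list, the 4 tested genes (6 for targets) with the smallest p; 1 gene that the rule took is not reported here. Members and lists were chosen with earlier results of these data known. Alternatives were other scalings and filters, DESeq2 1.42.0, limma-voom (limma 3.58.1), a replicate block, thinned DP libraries and each library left out.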

Additional observations from a re-analysis of the deposited data

How the results depend on the processing

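The 8 members called higher in DP stayed 8 under every alternative run. The count of members called lower was 2, and 1 with no filter on low counts, 1 with DESeq2 and 1 to 2 when each library was left out in turn; Rela was the call lost each time, and its log2 fold change was -0.08 with no filter (edgeR adjusted p = 0.332). At least 2-fold rises numbered 5, 3 with library totals alone (Nfkbie and Nfkbid fell short), 4 with upper-quartile factors, 4 with limma-voom (Nfkbid fell short in both), and 4 to 5 with libraries left out. With library totals alone 38.0% of all called genes were higher in DP, against 50.5% with TMM factors. The share of Nfkb2 and Relb among subunits was 20.7% in DN and 47.3% in DP by longest transcript length. Among the pathway lists, the rise called in the kinase and adaptor list was lost with library totals alone (where 12 instead of 9 of its genes were lower), with DESeq2, with thinned DP libraries and without DP replicate 2, and 6 instead of 3 linear ubiquitin genes were called higher with no filter. The cause of these changes was not tested. With the replicate number as a replicate block, 8 members were called higher and 2 lower and no member changed its call, while calls over all genes went from 4328 and 4243 to 4338 and 4251. Deviations of same-numbered libraries correlated at 0.0562, -0.00611 and -0.0182, and not every library correlated best with its own number, so the numbers were not taken as pairs. Depth limits Nfkbid most, with 26 to 43 counts per DN library.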
